A study of Mus musculus with 12 samples.

Results

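Matrix metalloproteinases and their inhibitors were described across the cell classes and treatment groups of mouse lungs given bleomycin and an EphB4 inhibitor. The genes are 5 matrix metalloproteinases (Mmp2, Mmp14, Mmp15, Mmp16 and Mmp19), the 4 tissue inhibitors of metalloproteinases (Timp1, Timp2, Timp3 and Timp4) and the tolloid-like protease Tll1. They were chosen by symbol and make up 10 of the 31053 genes listed in the files. In all nuclei together, Timp1, Mmp19, Mmp14 and Mmp2 were higher in bleomycin-treated mice given vehicle than in those given the inhibitor, and Timp3 was not called. Within classes, Timp3 was lower in fibroblast nuclei of the vehicle mice and higher in their AT2 and general capillary nuclei. In each of these classes the pooled level of the vehicle mice was below that of lymphocytes and is not distinguished from background. Each call was also lost when certain single libraries were left out. The fibroblast difference was no longer called when the clustering was not corrected for library. That setting left most fibroblast nuclei of the vehicle mice unnamed.

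Single-nucleus RNA sequencing counts RNA molecules in single nuclei, each molecule by a unique molecular identifier (UMI). Nuclei were sorted on the DNA dye DAPI from the frozen lungs of 12 wild-type C57BL/6J mice, each mouse giving 1 library, in 4 groups of 3. The mice were aged 7 weeks when bleomycin or PBS was given. PBS_vehicle and PBS_NVP mice received PBS through the trachea, and Bleo_vehicle and Bleo_NVP mice were given bleomycin, which injures alveoli and is widely used to model fibrosis. From day 5 and for 5 days, the NVP groups were given NVP-BHG712, an inhibitor of the EphB4 receptor tyrosine kinase, by mouth, and the vehicle groups its solvent, N-methyl-2-pyrrolidone with polyethylene glycol. All lungs were taken at day 14, so each library is 1 time point of 1 animal.

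Matrix metalloproteinases are zinc proteases that cut collagens, elastin, basement membrane and many surface proteins. They are made as inactive proenzymes, and a propeptide has to be removed before they can cut. Mmp2 is secreted, whereas Mmp14, Mmp15 and Mmp16 are anchored in the plasma membrane, and Mmp14 activates Mmp2 together with Timp2. The TIMPs bind the active site of these proteases, and Timp3 in addition sticks to the matrix and inhibits ADAM and ADAMTS proteases. Tll1 belongs to another protease family, the tolloids, which remove the propeptides of procollagens. In the lung the balance between these proteases and their inhibitors sets how matrix is laid down and cleared after injury.

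In GRCm38, with gene limits from the GENCODE M21 annotation, the secreted protease genes lie at chr8:92827291-92853420 on the plus strand (Mmp2) and chr10:128790910-128800824 on the plus strand (Mmp19). The membrane-anchored Mmp14, Mmp15 and Mmp16 lie on the plus strand at chr14:54431612-54445364, chr8:95352268-95375080 and chr4:17852893-18119145. The inhibitor genes lie at chrX:20870166-20874735, plus strand (Timp1), chr11:118301069-118355740, minus strand (Timp2), chr10:86300372-86349506, plus strand (Timp3), and chr6:115241892-115252205, minus strand (Timp4). Tll1 lies at chr8:64014931-64206271 on the minus strand. Timp1, Timp3 and Timp4 each sit within or across a synapsin gene on the opposite strand (Syn1, Syn3 and Syn2 respectively). Timp2 overlaps Cep295nl on its own strand, so that the strand of a read from their shared stretch does not tell the genes apart.

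Promoter sequences are shown for Mmp14 and Timp1, which were both lower in Bleo_NVP than in Bleo_vehicle lungs, and for Timp3, which was higher there in fibroblasts. RefSeq (GRCm38.p6) gave 7 of the 10 genes a promoter of 300 bases, from 250 before to 50 after the start of the gene. The 3 below are written 5′ to 3′ on the plus strand, which is the strand of each gene, and capitals mark GC boxes, the letters GGGCGG on either strand.
Mmp14, chr14:54431348-54431647: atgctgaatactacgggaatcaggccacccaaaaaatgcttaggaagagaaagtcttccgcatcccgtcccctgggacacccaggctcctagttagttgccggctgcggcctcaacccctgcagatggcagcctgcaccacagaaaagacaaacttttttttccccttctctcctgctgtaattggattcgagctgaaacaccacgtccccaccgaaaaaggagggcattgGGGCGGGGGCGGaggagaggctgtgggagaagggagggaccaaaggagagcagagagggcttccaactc
Timp1, chrX:20869916-20870215: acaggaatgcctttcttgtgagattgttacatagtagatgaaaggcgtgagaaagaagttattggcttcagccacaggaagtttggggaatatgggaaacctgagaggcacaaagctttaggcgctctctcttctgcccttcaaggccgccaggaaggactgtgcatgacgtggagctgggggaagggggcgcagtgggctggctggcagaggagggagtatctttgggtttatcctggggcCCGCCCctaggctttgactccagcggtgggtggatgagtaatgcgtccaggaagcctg
Timp3, chr10:86300162-86300461: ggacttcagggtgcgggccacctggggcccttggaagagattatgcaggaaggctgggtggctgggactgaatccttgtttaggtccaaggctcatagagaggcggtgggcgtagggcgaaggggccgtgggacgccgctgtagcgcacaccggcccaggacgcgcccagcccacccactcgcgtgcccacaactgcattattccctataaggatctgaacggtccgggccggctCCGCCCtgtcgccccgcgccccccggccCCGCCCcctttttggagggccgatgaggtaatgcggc
Mmp14 and Timp3 had 2 GC boxes each, Timp1, Timp2 and Mmp15 had 1 each, and Timp4 and Tll1 had 0, while 35.884% of 32544 promoters of this length held at least 1. The AP-1 motif TGANTCA, held by 7.789% of promoters, and the TATA box TATAAA, held by 13.569%, were found on neither strand in any of the 7 promoters. These are matches of exact letters in a fixed window, so a site that differs from them in a letter is not found.

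The 12 libraries held 49163 barcodes and 184940649 UMIs (3556084 to 61947690 per library), and 44611 nuclei were used (1168 to 11867 per library). The median share of mitochondrial UMIs per barcode ran from 0.668% to 2.56% in Bleo_vehicle, highest in replicate 1, and did not exceed 0.0496% elsewhere. Per the labels the PBS libraries carry run numbers 1 to 3, the Bleo_NVP libraries run number 4 and the Bleo_vehicle libraries batch numbers 6 and 7, so that in each comparison with a bleomycin group the batch cannot be told apart from the group. Of the barcode sequences 324 occurred in 2 or more libraries, and the largest pair shared 34. Nuclei fell into 36 clusters that gave 19 classes named from marker genes, and 2422 nuclei stayed unnamed. The names are rebuilt from markers and mean fibroblast-like, AT1-like and so on. The p-values measure the spread between mice within a group, estimated over all groups of a fit together and not in the 2 groups compared alone.

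The 10 genes differed widely in how they were spread over the classes, and none of the 10 had been used to form the clusters. Levels are given as CPM, UMIs per 1000000 UMIs of a class in a library, with the mean ± SD over the libraries holding at least 20 nuclei of the class. The genes themselves are not compared with each other, since CPM is not corrected for gene length. In all 10 genes the range over libraries in the highest class overlapped that in the next class, so that the order of neighbours is not resolved.

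Among the proteases, Mmp2, a gelatinase, was highest in fibroblasts at 32.3 ± 15.1 CPM (SD, n = 12), which held 74.7% of its UMIs, followed by venous endothelium at 22.1 ± 13.6 CPM (n = 12). Mmp14, the activator of Mmp2, reached 204 ± 181 CPM (n = 7) in lymphatic endothelium and 51.2 ± 66.1 CPM (n = 7) in dendritic cells, but fibroblasts, at 40.3 CPM, held 33.0% of its UMIs. Mmp14 was found in every class, the lowest being aerocytes, the gas-exchange capillary cells, at 7.62 CPM. Mmp15 was highest in AT2 cells, which make surfactant, at 109 ± 38.7 CPM (n = 12). Ciliated cells at 88.3 ± 44.1 CPM (n = 12) and club cells at 76.0 ± 28.4 CPM (n = 12) came next. General capillary endothelium followed at 29.0 ± 13.7 CPM (n = 12). AT1 cells, although epithelial, were at 1.93 CPM, near the lowest class, fibroblasts, at 1.83 CPM. Mmp16 was mostly a gene of venous endothelium, which held 64.6% of its UMIs at 505 ± 206 CPM (n = 12), against 77.8 ± 74.4 CPM (n = 9) in mesothelial cells. Mmp19, which cuts basement membrane proteins, was highest in interstitial macrophages or monocytes at 102 ± 118 CPM (n = 11) and in alveolar macrophages at 71.6 ± 50.0 CPM (n = 12), with 19.6 ± 6.36 CPM (n = 12) in fibroblasts. Tll1 was highest in venous endothelium at 1433 ± 680 CPM (n = 12), then in lymphatic endothelium at 533 ± 317 CPM (n = 7) and mesothelial cells at 515 ± 362 CPM (n = 9), and lowest in AT1 cells at 2.28 CPM.

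Among the inhibitors, Timp3 was highest in AT1 cells, the flat cells of the alveolar wall, at 908 ± 265 CPM (n = 12) and in transitional epithelium at 880 ± 283 CPM (n = 12), and AT1 cells held 51.2% of its UMIs. Timp2 was spread more evenly, from 181 ± 85.4 CPM (n = 7) in lymphatic endothelium, 165 ± 80.4 CPM (n = 9) in mesothelial cells and 122 ± 31.3 CPM (n = 12) in aerocytes to 16.6 CPM in ciliated cells. Both were thus well covered, with 67112 and 11749 UMIs in the nuclei used. Timp1 and Timp4 were not: Timp1 had 376 UMIs, of which fibroblasts held 146 (38.8%), and its highest mean, 12.3 ± 32.9 CPM (n = 8) in pericytes, rested on 4 UMIs. Timp4 had 96 UMIs, of which fibroblasts held 51 (53.1%), and its highest mean, 11.3 ± 19.6 CPM (n = 3) in smooth muscle, came from 1 library at 33.95 CPM and 2 at 0.

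**Figure D1:**
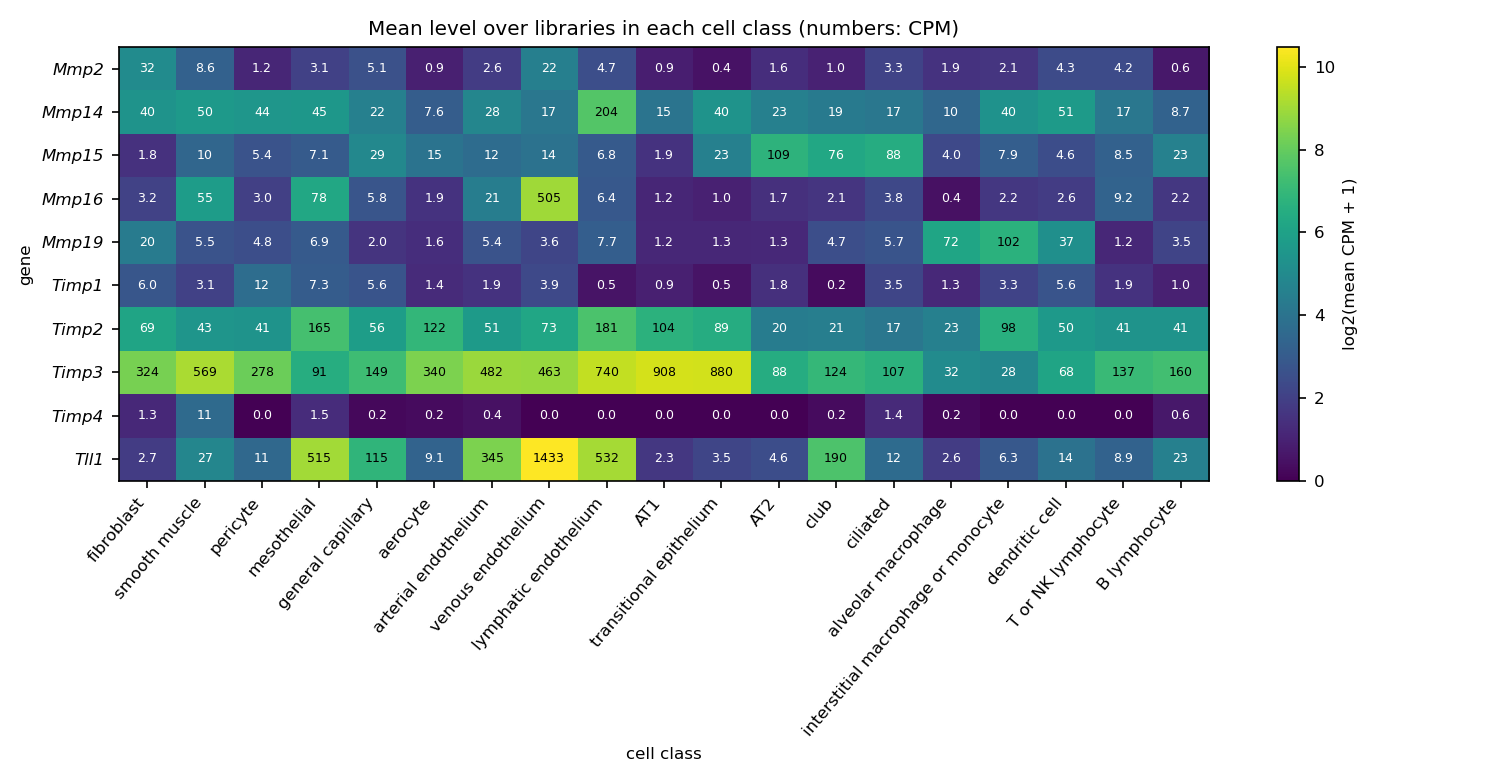
Mean level of the 10 genes in each of the 19 named cell classes, with genes in rows and classes in columns, the colour giving log2(mean CPM + 1) and the printed number the mean CPM. Mmp16 and Tll1 are highest in venous endothelium, Mmp15 in AT2 cells, Mmp2 in fibroblasts and Timp3 in AT1 cells.

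The genes whose pattern over the 19 classes was most like each of these were found by Pearson correlation of log2(CPM + 1) among 12915 genes that reached 10 CPM in a class. The correlation is over classes that share libraries and is a description. For Mmp2 they were Dpep1 (r = 0.841), Palld (0.834) and Bche (0.808), and for Mmp14 Cd109 (0.772), Ebf3 (0.759) and Sema3d (0.743). For Mmp15 they were Tmprss4 (0.866), Plekhh1 (0.86) and Brd8 (0.832), for Mmp16 Amigo2 (0.911), Prss23 (0.9) and Gxylt2 (0.894), and for Mmp19 Tgfbr1 (0.927), Sh3bp2 (0.915) and Atp6ap2 (0.914). Amigo2 and Prss23 are among the markers by which venous endothelium was named. For Timp2 they were Arhgef10 (0.811), Xaf1 (0.794) and Acap3 (0.778), for Timp3 Ehd2 (0.853), Epn2 (0.843) and Rcn2 (0.814), and for Tll1 Ybx3 (0.861) and Hs3st1 (0.856). Timp1, at most 5.24 CPM in any class once libraries were summed, was too low for the comparison, and Timp4 passed its limit only through smooth muscle, on 13 UMIs, so that no genes are named for it.

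To ask what bleomycin changed, the UMIs of all nuclei of a library were summed and Bleo_vehicle was compared with PBS_vehicle. Levels below are CPM scaled by the TMM library sizes, and a gene is called when its Benjamini-Hochberg adjusted p over all genes tested, from the quasi-likelihood test of edgeR, is under 0.05. Of the 10 genes 9 passed the filter on low counts, all but Timp4, and 2 were called, Timp1 and Mmp19, both higher in Bleo_vehicle, where 2.44% of the 14442 genes tested were called in either direction. The median log2 change was 0.15 over the 9 genes and 0.0066 over all genes tested.

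Timp1, a secreted inhibitor, was at 0.854, 0.282 and 0.212 CPM in the PBS_vehicle libraries, on 21, 2 and 1 UMIs, and at 25.9, 5.99 and 2.61 CPM in the Bleo_vehicle libraries, on 104, 79 and 124 UMIs. Every Bleo_vehicle library was above every PBS_vehicle library, with Bleo_vehicle replicate 1 far above the other two. The log2 change was 4.23 (SE 0.849, adjusted p = 0.0274), and without PBS_vehicle replicate 2 or 3 the call was lost, with log2 changes from 2.87 to 5.35 and adjusted p from 0.00499 to 0.115 over the 12 libraries left out in turn. B lymphocytes and T or NK lymphocytes, taken here as a gauge of background, held 5 and 4 Timp1 UMIs in Bleo_vehicle (9.76 and 6.91 CPM), while fibroblasts held 100 UMIs (8.38 CPM), interstitial macrophages or monocytes 22, general capillary endothelium 20 and AT1 cells 18.

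Mmp19 rose from 6.35, 9.17 and 13.6 CPM in PBS_vehicle to 40.5, 39.1 and 18.6 CPM in Bleo_vehicle, with no overlap between the groups. The log2 change was 1.78 (SE 0.344, adjusted p = 0.0236). The call was lost without PBS_vehicle replicate 1 or 2 or without Bleo_vehicle replicate 1 or 2, with log2 changes of 1.52 to 2.08 and adjusted p of 0.0043 to 0.103 over the libraries left out. Mmp19 is highest in the macrophage classes, and these made up more of the Bleo_vehicle nuclei. Interstitial macrophages or monocytes were 1.31%, 2.35% and 1.80% of nuclei in PBS_vehicle and 8.60%, 5.38% and 5.77% in Bleo_vehicle, and alveolar macrophages 8.18%, 5.02% and 6.63% against 18.1%, 8.85% and 7.49%. In sums over a whole lung, more nuclei of a class and more RNA per nucleus cannot be told apart.

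Mmp14 was at 17.8, 16.2 and 19.1 CPM in PBS_vehicle and at 95.5, 37.0 and 27.2 CPM in Bleo_vehicle, a log2 difference of 1.56 (SE 0.387, adjusted p = 0.0554). Mmp2 was at 8.14, 7.62 and 8.05 CPM against 17.2, 14.02 and 12.3 CPM, a log2 difference of 0.85 (SE 0.206, adjusted p = 0.0514). For both genes all 3 Bleo_vehicle libraries were above all 3 PBS_vehicle libraries, but the adjusted p missed the threshold. It was passed by both without Bleo_vehicle replicate 3 (adjusted p down to 0.0115 for Mmp14 and 0.0269 for Mmp2), with the replicate number as a block and in DESeq2. Without Bleo_vehicle replicate 1 the log2 difference of Mmp14 was 0.85 (adjusted p = 0.105).

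The other members were not called, and their groups mostly overlapped. Timp2 was at 81.1, 70.8 and 81.2 CPM in PBS_vehicle and 59.9, 59.6 and 64.1 CPM in Bleo_vehicle, without overlap, a log2 difference of -0.34 (SE 0.123, adjusted p = 0.16). The log2 differences of Mmp15, Mmp16, Tll1 and Timp3 were -0.54, -0.35, -0.40 and 0.15, with adjusted p from 0.512 to 0.742. Bleo_vehicle replicate 1 had the lowest Mmp15, Mmp16 and Tll1 of the 12 libraries, at 3.73, 4.72 and 20.9 CPM. Timp4 was untested. Its summed libraries held 16 UMIs (0.466 CPM) for PBS_vehicle, 22 (0.503 CPM) for PBS_NVP, 46 (0.715 CPM) for Bleo_vehicle and 12 (0.759 CPM) for Bleo_NVP.

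**Figure D2:**
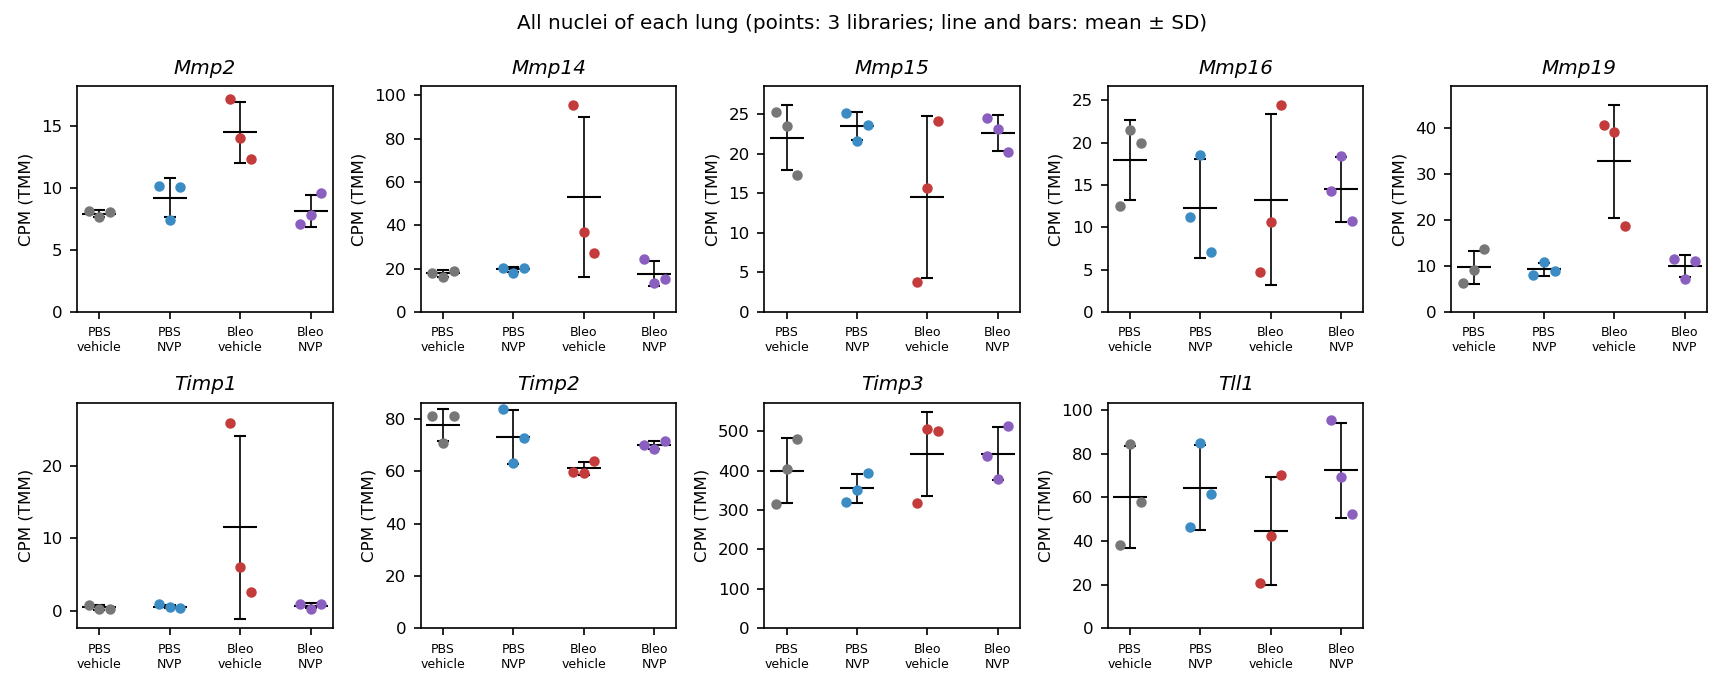
CPM (TMM library sizes, linear axis) of the 9 tested genes in the sum of all nuclei of each library, with a point for each of the 3 libraries of a group and a line and bars for the mean ± SD. The Bleo_vehicle points of Timp1, Mmp19, Mmp14 and Mmp2 lie above those of PBS_vehicle and Bleo_NVP.

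The second question was what NVP-BHG712 changed in bleomycin-treated lungs. In Bleo_NVP against Bleo_vehicle 4 of the 9 tested members were called, Timp1, Mmp19, Mmp14 and Mmp2, all lower in Bleo_NVP, where 5.51% of the 14442 genes were called in either direction. The median log2 change was 0.0035 over the 9 members and -0.048 over all genes tested. This comparison and the one before share the Bleo_vehicle libraries, and the values are set side by side only.

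In the Bleo_NVP libraries Timp1 was at 0.889, 0.299 and 0.961 CPM (3, 2 and 5 UMIs), within or near the range of the PBS_vehicle libraries, and fell by 3.99 on the log2 scale (SE 0.91, adjusted p = 0.0284). Mmp19 was at 11.6, 7.19 and 11.15 CPM in Bleo_NVP and fell by 1.72 (SE 0.35, adjusted p = 0.0184). Mmp14 was at 24.3, 13.5 and 15.2 CPM and fell by 1.58 (SE 0.396, adjusted p = 0.0401). Mmp2 was at 7.11, 7.79 and 9.61 CPM and fell by 0.80 (SE 0.211, adjusted p = 0.0471). In all 4 genes each of the 3 Bleo_NVP libraries was below each of the 3 Bleo_vehicle libraries. Such separation was not counted over all genes, here or elsewhere, and only describes the values.

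These calls rested on few libraries. Those of Timp1 and Mmp19 were each lost without any 1 of the Bleo_NVP libraries, that of Timp1 also without Bleo_vehicle replicate 1 and that of Mmp19 without Bleo_vehicle replicate 2, with adjusted p up to 0.107 and 0.08. Mmp14 was called in 3 of the 12 fits that left out a library and Mmp2 in 1, with log2 changes of -1.91 to -0.89 and -0.93 to -0.68, and the libraries whose omission ended the call included control libraries (for Mmp14 PBS_vehicle 2 and 3, PBS_NVP 2 and 3, all of Bleo_NVP, Bleo_vehicle 1 and 2, and for Mmp2 every library but Bleo_vehicle 3). When nuclei under 500 UMIs or over 1% mitochondrial share were dropped, only Mmp19 of the 4 was called (log2 change -1.67, adjusted p = 0.0316).

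The other 5 tested members were not called. Tll1 was at 95.4, 69.2 and 52.3 CPM in Bleo_NVP and 20.9, 42.2 and 70.2 CPM in Bleo_vehicle, a log2 difference of 0.67 (SE 0.405, adjusted p = 0.313). The log2 differences of Mmp15, Timp2, Mmp16 and Timp3 were 0.56, 0.20, 0.06 and 0.004, with adjusted p from 0.334 to 0.995.

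Fibroblasts, which make most of the interstitial matrix, were the class with the most nuclei, 9305, and were compared on their own. Of the 10 genes 7 passed the filter there, all but Mmp15, Mmp16 and Timp4. In Bleo_vehicle against PBS_vehicle 2 were called, Mmp2 and Tll1, both higher, where 4.46% of the 10352 genes tested were called. In Bleo_NVP against Bleo_vehicle 3 were called, Mmp2 and Timp1 lower and Timp3 higher, where 7.24% were called. The median log2 difference of the 7 members was 1.01 in the first comparison and -1.08 in the second, and that of all genes tested 0.00031 and -0.049.

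Mmp2 was at 29.5, 22.4 and 21.9 CPM in PBS_vehicle fibroblasts, at 70.6, 38.1 and 47.7 CPM in Bleo_vehicle and at 21.6, 22.2 and 27.3 CPM in Bleo_NVP. Every Bleo_vehicle library was above the libraries of both other groups. Mmp2 rose by a log2 change of 1.01 (SE 0.258, adjusted p = 0.0377) in Bleo_vehicle and fell by 1.08 (SE 0.27, adjusted p = 0.0283) in Bleo_NVP. B lymphocytes held 0 Mmp2 UMIs in Bleo_vehicle (which allows up to 5.86 CPM, counting error only) and T or NK lymphocytes 12.1 CPM, against 47.8 CPM in Bleo_vehicle fibroblasts. The rise lost its call without any 1 of the PBS_vehicle libraries, Bleo_NVP replicate 1 or 3, or Bleo_vehicle replicate 1, and the fall without any 1 of the Bleo_NVP libraries or Bleo_vehicle replicate 1. Over all libraries left out, the log2 changes ran from 0.78 to 1.19 and from -1.27 to -0.84, and adjusted p reached 0.135 and 0.108.

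Timp1 was at 2.84, 0.995 and 0.644 CPM in PBS_vehicle fibroblasts (15, 2 and 1 UMIs) and at 45.7, 9.36 and 4.67 CPM in Bleo_vehicle (33, 27 and 40 UMIs), a log2 difference of 3.13 (SE 0.879, adjusted p = 0.0626) that was not called. In Bleo_NVP fibroblasts it was at 1.03, 0.987 and 1.33 CPM (1, 2 and 2 UMIs), lower than Bleo_vehicle by 3.82 on the log2 scale (SE 1.06, adjusted p = 0.0452). Bleo_vehicle replicate 1 held the highest value, and without it the second difference was -2.54 (adjusted p = 0.0823). Pooled over Bleo_vehicle, the 8.38 CPM in fibroblasts lay between the levels of T or NK and B lymphocytes and is not distinguished from background. The call of the second difference held in 4 of the 12 fits that left out a library, being lost without PBS_vehicle 2 or 3, PBS_NVP 2, any of Bleo_NVP, or Bleo_vehicle 1 or 2, and was also lost once 3 subclusters led by genes of other classes were taken out (-4.15, adjusted p = 0.0514; adjusted p over all alternatives 3.18e-06 to 0.139). Markers of interstitial macrophages or monocytes moved with it, 9 of 10 being above all PBS_vehicle libraries, with a summed level of 4.22 to 10.2 CPM in PBS_vehicle fibroblasts, 29.5 to 86.4 CPM in Bleo_vehicle and 5.12 to 8.30 CPM in Bleo_NVP. Their part in the result was not tested.

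Timp3 was the inhibitor that went the other way. It was at 366, 358 and 421 CPM in PBS_vehicle fibroblasts and at 62.3, 180 and 232 CPM in Bleo_vehicle, a log2 difference of -1.23 (SE 0.369, adjusted p = 0.0848). In Bleo_NVP it was at 510, 281 and 597 CPM and rose over Bleo_vehicle by a log2 change of 1.50 (SE 0.372, adjusted p = 0.0332). All 3 Bleo_vehicle libraries were below all libraries of the other 3 groups, PBS_NVP being at 331, 255 and 342 CPM. The first difference passed the threshold in DESeq2 and without Bleo_vehicle replicate 3 (-1.60, adjusted p = 0.0273), and the call of the second was lost without Bleo_NVP replicate 1 or 3 or Bleo_vehicle replicate 2 (log2 changes of 1.18 to 1.89, adjusted p up to 0.117).

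The Timp3 difference also rested on how fibroblasts were delimited. When the clustering was not corrected for library with Harmony, only 651 of the 3893 fibroblast nuclei of Bleo_vehicle were again classed as fibroblasts, while PBS_vehicle kept 1548 of 1605, PBS_NVP 2546 of 2643 and Bleo_NVP 1123 of 1164. Over all groups, 3430 of the nuclei that lost the class stayed unnamed, and few took another name. Unnamed clusters there included a cluster of 2156 nuclei led by Chl1, Tnc and Pappa. Another, of 1615 nuclei, had fibroblast as its best marker list. The values without Harmony thus leave out most Bleo_vehicle fibroblasts of the main clustering. In the fibroblasts of that clustering the log2 differences of Timp3 were -0.30 (adjusted p = 0.633) and 0.56 (adjusted p = 0.216), whereas those of Mmp2 were 1.33 and -1.37 (adjusted p = 0.0034 and 0.00332). In Bleo_vehicle the fibroblasts held 214 CPM of Timp3, near the 223 CPM of B lymphocytes and below the 304 CPM of T or NK lymphocytes. The Bleo_vehicle level in fibroblasts is thus not distinguished from background. In PBS_vehicle the level was 383 CPM in fibroblasts against 131 and 59.6 CPM in these lymphocytes. In fibroblasts AT2 markers summed to 98.9 to 201 CPM in PBS_vehicle, 288 to 1206 CPM in Bleo_vehicle and 82.3 to 123 CPM in Bleo_NVP. Of these markers 4 of 8 were above all PBS_vehicle libraries. AT1 markers summed to 78.3 to 146, 134 to 323 and 50.2 to 132 CPM in the same groups, with 3 of 8 above. The part of both lists was not tested.

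Tll1 was at 1.14, 1.99 and 0.644 CPM in PBS_vehicle fibroblasts (6, 4 and 1 UMIs) and at 5.54, 5.202 and 7.00 CPM in Bleo_vehicle (4, 15 and 60 UMIs), a log2 change of 2.24 (SE 0.533, adjusted p = 0.0276). In Bleo_NVP it was at 1.03, 1.97 and 3.33 CPM, a log2 difference of -1.45 from Bleo_vehicle (SE 0.544, adjusted p = 0.125). The fibroblast level in Bleo_vehicle was below that of B lymphocytes (41.0 CPM on 21 UMIs) and of T or NK lymphocytes (34.5 CPM on 20 UMIs), and in PBS_vehicle both held 0 UMIs, which allows up to 14.1 and 13.75 CPM. The level in fibroblasts is therefore not distinguished from background, and what the rise came from was not tested. The call was lost without any 1 of the PBS_vehicle libraries or Bleo_vehicle replicate 2 or 3 (adjusted p up to 0.121).

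Of the members not called in fibroblasts, Mmp14 was at 36.2, 26.4 and 16.7 CPM in PBS_vehicle, at 162, 41.6 and 34.7 CPM in Bleo_vehicle and at 29.9, 21.7 and 24.6 CPM in Bleo_NVP. Bleo_vehicle replicate 1 stood apart, and the log2 differences of 1.40 and -1.53 (adjusted p = 0.186 and 0.139) became 0.46 and -0.58 without it (adjusted p = 0.499 and 0.311). Both differences of Mmp14 passed the threshold with the replicate block (adjusted p = 0.0232 and 0.0239), in DESeq2 (0.0272 and 0.0183) and without a filter (1.34e-05 and 2.33e-06), and the second also without Bleo_vehicle replicate 3 (0.0442). Mmp19, at 17.99, 21.4 and 13.5 CPM against 31.8, 30.2 and 19.6 CPM in Bleo_vehicle, had log2 differences of 0.56 and -0.67 (adjusted p = 0.338 and 0.214). Timp2 had log2 differences of -0.42 and 0.31 (adjusted p = 0.211 and 0.333), its Bleo_vehicle libraries, at 42.9, 61.4 and 69.7 CPM, lying below all of PBS_vehicle and Bleo_NVP.

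**Figure D3:**
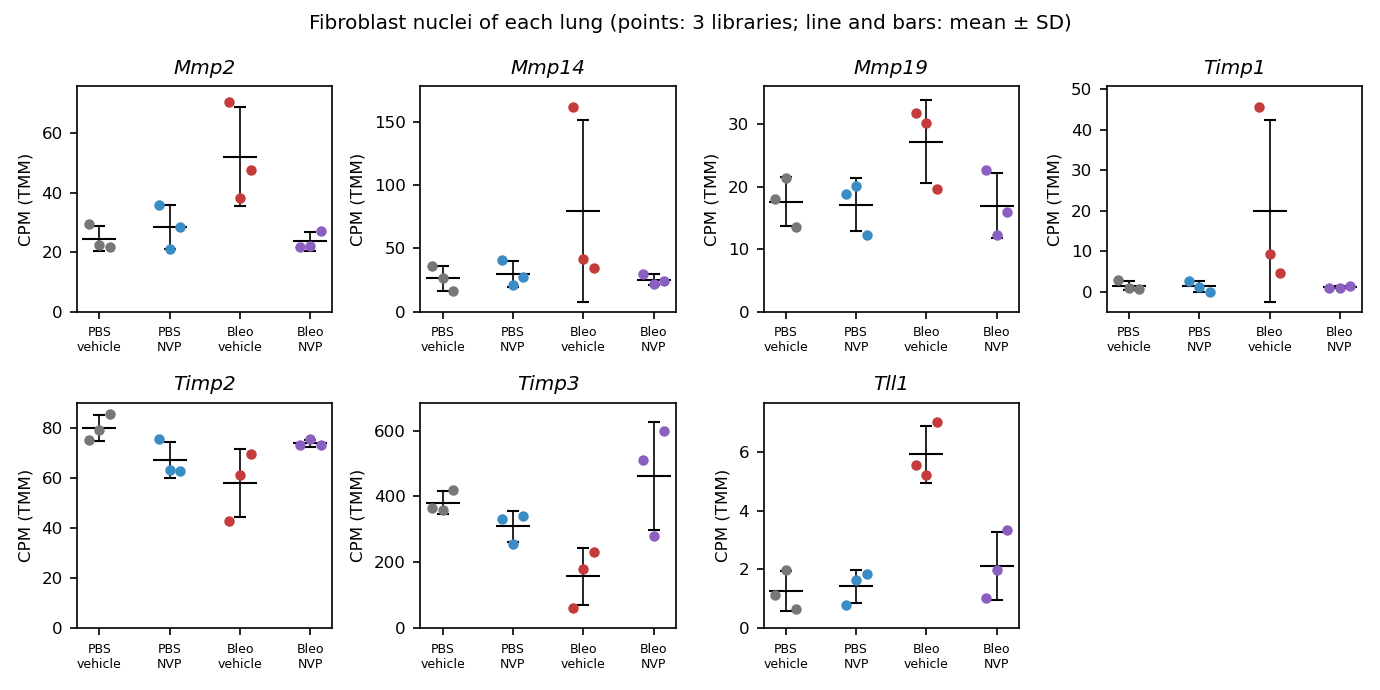
CPM (TMM library sizes) of the 7 tested genes in fibroblast nuclei, each point being 1 of the 3 libraries of a group, with the mean ± SD as a line and bars. Mmp2 and Timp1 are highest and Timp3 lowest in Bleo_vehicle, with replicate 1 the most extreme for each.

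Fibroblasts were clustered once more without these genes and split into 10 subclusters, among which the members were unevenly spread. A subcluster of 977 nuclei had 8 raised markers of fibrotic fibroblasts, of which Tnc was among its leading genes, next to the unlisted Thbs1 and Adam12. One of 498 nuclei had 7 raised markers of adventitial fibroblasts, of which Pi16 was among its leading genes, next to the unlisted Scara5. The other subclusters stayed unnamed. Over all libraries summed, Timp1 was at 20.4 CPM and Mmp14 at 68.1 CPM in the fibrotic subcluster, against 0.5 and 0.3 CPM of Timp1 and 25.02 and 27.4 CPM of Mmp14 in the unnamed subclusters 0 and 1, the largest at 3165 and 1643 nuclei. The adventitial subcluster had 866 CPM of Timp3, 174 CPM of Timp2, 74.3 CPM of Mmp16 and 66.0 CPM of Mmp2. Mmp2 was higher still, 78.8 CPM, in subcluster 3, which was led by Tmem163 and Cdh22. These are levels of clusters formed on the same nuclei and were not tested.

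For Timp3 Bleo_vehicle was the lowest of the 4 groups in the 6 largest subclusters, as in all fibroblasts, while the order of the other groups varied. Of these, subcluster 2 (1392 nuclei) was led by mitochondrial genes, its nuclei having a median of 0.547 times the median UMIs of their library. It held 131 of 437, 400 of 1558 and 377 of 1898 fibroblasts of Bleo_vehicle. In PBS_vehicle it held 61 of 785, 37 of 425 and 31 of 395. It was kept when the mixed subclusters were taken out. In subcluster 0 Bleo_vehicle was at 134 CPM, against 204 CPM for PBS_vehicle, 219 CPM for PBS_NVP and 230 CPM for Bleo_NVP. In the same order, it was at 286 CPM against 657, 560 and 1075 CPM in subcluster 3, and at 231 CPM against 548, 338 and 398 CPM in the fibrotic subcluster. In the adventitial subcluster Bleo_vehicle, at 527 CPM, was close to Bleo_NVP at 555 CPM, with PBS_vehicle at 1361 and PBS_NVP at 1110 CPM. In the fibrotic subcluster Timp1 was at 30.6 CPM in Bleo_vehicle (48 UMIs), 9.28 CPM in PBS_vehicle (5 UMIs), 14.1 CPM in PBS_NVP (12 UMIs) and 5.98 CPM in Bleo_NVP (2 UMIs), and Mmp14 at 93.1, 46.4, 48.3 and 35.9 CPM. These sums are dominated by the deeper libraries of each group and carry no test.

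**Figure D4:**
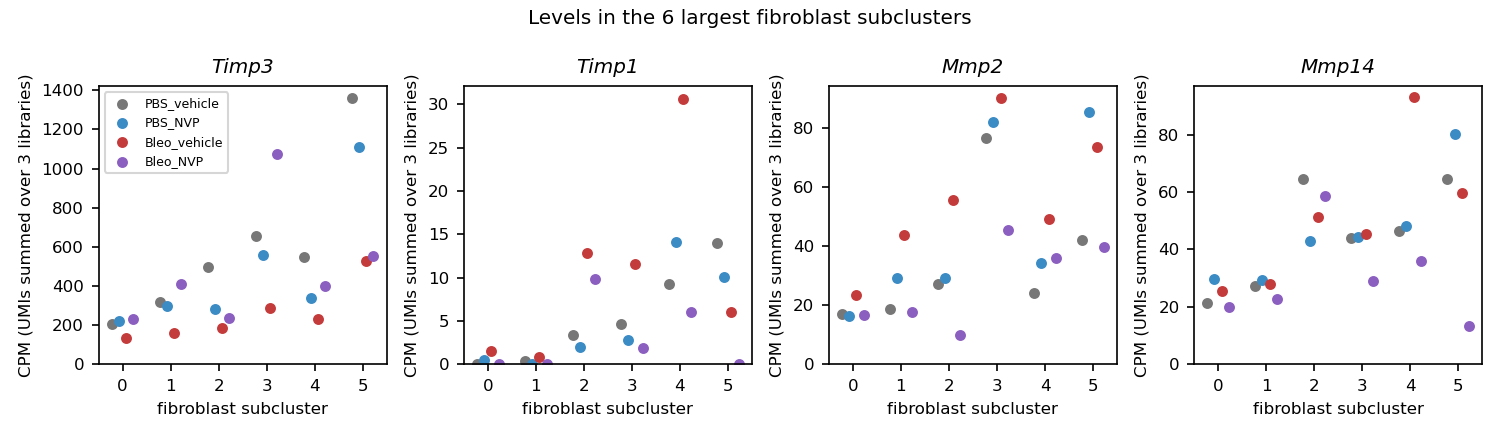
CPM of Timp1, Timp3, Mmp2 and Mmp14 in the 6 largest fibroblast subclusters, with the UMIs of the 3 libraries of each group summed to 1 point. Timp3 is lowest in Bleo_vehicle in all 6, of which subcluster 4 is the fibrotic and 5 the adventitial one, while subcluster 2 is led by mitochondrial genes.

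In the other classes 11 could be tested, with 34 tests of a member in a class. In Bleo_vehicle against PBS_vehicle 4 of the 34 were called and in Bleo_NVP against Bleo_vehicle 4, all of them of Timp2, Timp3 or Mmp19. Arterial endothelium was fitted without Bleo_NVP replicate 1 and Bleo_vehicle replicate 1, and interstitial macrophages or monocytes without Bleo_NVP replicate 1, which had fewer than 20 nuclei. In the classes where no member was called, the share of all genes called ran from 0.0623% to 3.25% in the first comparison and from 0% to 4.49% in the second.

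In AT1 cells Timp2, the partner of Mmp14 in activating Mmp2, was at 136, 124 and 116 CPM in PBS_vehicle and at 76.6, 64.9 and 76.3 CPM in Bleo_vehicle. It fell by 0.79 on the log2 scale (SE 0.157, adjusted p = 0.0191), where 2.21% of genes were called, and every Bleo_vehicle library lay below every other library. In Bleo_NVP it was at 102, 122 and 103 CPM, a log2 difference of 0.59 from Bleo_vehicle (SE 0.16, adjusted p = 0.0503). The fall lost its call without PBS_vehicle replicate 1 or 2 or Bleo_vehicle replicate 2 (log2 changes of -0.85 to -0.73, adjusted p up to 0.0685), with doublets kept and without the Harmony correction. Timp3 in the same cells was at 680.5, 892 and 985 CPM in PBS_vehicle and 703, 1432 and 1528 CPM in Bleo_vehicle, a log2 difference of 0.52 that was not called (SE 0.231, adjusted p = 0.275).

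In AT2 cells Timp3 was at 70.7, 101 and 35.7 CPM in PBS_vehicle and rose to 247, 210 and 131 CPM in Bleo_vehicle, by a log2 change of 1.42 (SE 0.329, adjusted p = 0.0202), where 4.53% of genes were called. It was at 29.9, 85.5 and 81.4 CPM in Bleo_NVP, a fall of 1.49 (SE 0.352, adjusted p = 0.0246), where 4.41% were called. Timp2 in AT2 cells fell from 77.3, 44.3 and 25.6 CPM in Bleo_vehicle to 7.48, 12.95 and 6.51 CPM in Bleo_NVP, which rest on 2, 5 and 2 UMIs, a log2 change of -2.22 (SE 0.616, adjusted p = 0.0468). Pooled over libraries, Bleo_vehicle AT2 cells had 136 CPM of Timp3 and 28.4 CPM of Timp2. Both were below the lymphocytes of the same libraries, which had 223 and 304 CPM of Timp3 and 42.96 and 55.3 CPM of Timp2. These AT2 levels are not distinguished from background. AT1 markers moved with both genes, 7 of 8 being above all PBS_vehicle libraries, with a summed level of 417 to 698 CPM in PBS_vehicle AT2 nuclei, 1021 to 1409 CPM in Bleo_vehicle and 372 to 489 CPM in Bleo_NVP. Markers of interstitial macrophages or monocytes (7 of 10 above) went from 0 to 10.2 CPM in PBS_vehicle to 36.04 to 121 CPM in Bleo_vehicle, and those of alveolar macrophages (4 of 9 above) from 9.41 to 20.2 CPM to 51.1 to 59.1 CPM. The part of these markers in the results was not tested. The calls of Timp3 were lost without PBS_vehicle replicate 1 or 3 or Bleo_vehicle replicate 2 for the rise (adjusted p up to 0.108) and without any 1 of the Bleo_NVP libraries or Bleo_vehicle replicate 2 for the fall (adjusted p up to 0.111), and that of Timp2 in 8 of the 11 fits that left out a library (PBS_vehicle 1, any of PBS_NVP or Bleo_NVP, Bleo_vehicle 1; adjusted p up to 0.153).

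Mmp15, which had its highest mean in AT2 cells, was at 161, 125 and 94.0 CPM there in PBS_vehicle and at 30.9, 65.7 and 94.0 CPM in Bleo_vehicle. The log2 difference was -0.87 (SE 0.267, adjusted p = 0.0711) and was not called.

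In general capillary endothelium Timp3 was at 118, 108 and 170 CPM in PBS_vehicle and rose to 431, 345 and 181 CPM in Bleo_vehicle, by a log2 change of 1.23 (SE 0.309, adjusted p = 0.0322), where 3.27% of genes were called. It fell to 58.7, 119 and 90.5 CPM in Bleo_NVP, by 1.64 (SE 0.336, adjusted p = 0.00915), where 3.78% were called. The pooled Bleo_vehicle level, 198 CPM, was again below that of both lymphocyte classes and is not distinguished from background. That pool was dominated by replicate 3, with 3290785 UMIs of the class against 119143 and 625091 in replicates 1 and 2. AT1 markers in these nuclei summed to 147 to 230 CPM in PBS_vehicle, 143 to 786 CPM in Bleo_vehicle and 104 to 158 CPM in Bleo_NVP, with 3 of 8 above all PBS_vehicle libraries. The sums of some other marker lists were fully apart between PBS_vehicle and Bleo_vehicle, though not most of their single markers. For AT2 cells they were 188 to 399 CPM against 411 to 2637 CPM (3 of 8 above). For interstitial macrophages or monocytes they were 13.1 to 25.8 CPM against 52.3 to 151 CPM (4 of 10 above). For alveolar macrophages they were 8.75 to 22.7 CPM against 75.1 to 112.0 CPM (3 of 9 above). The part of these markers in the result was not tested. The rise lost its call without PBS_vehicle replicate 1 or 2 or Bleo_vehicle replicate 1 or 2 (adjusted p up to 0.224) and the fall without Bleo_NVP replicate 1 or 3 or Bleo_vehicle replicate 2 (adjusted p up to 0.0569).

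In alveolar macrophages Mmp19 was at 16.4, 45.5 and 74.1 CPM in PBS_vehicle and at 176, 215 and 72.8 CPM in Bleo_vehicle, a log2 change of 2.08 (SE 0.529, adjusted p = 0.0325), where 6.27% of genes were called. The groups overlapped, since Bleo_vehicle replicate 3 was below PBS_vehicle replicate 3. Lymphocytes of Bleo_vehicle had 13.7 and 6.91 CPM of Mmp19, against a pooled 106 CPM in alveolar macrophages, so this level is above that of lymphocytes. Markers of other classes moved with it in these nuclei. Those of interstitial macrophages or monocytes, the class with the highest Mmp19, summed to 246 to 322 CPM in PBS_vehicle, 314 to 768 CPM in Bleo_vehicle and 188 to 301 CPM in Bleo_NVP, with 7 of 10 above all PBS_vehicle libraries. AT2 markers summed to 202 to 335 CPM, 568 to 1844 CPM and 118 to 203 CPM, with 6 of 8 above, and their part in the result was not tested. Bleo_NVP was at 54.3, 48.1 and 62.5 CPM, a log2 difference of -1.46 from Bleo_vehicle (SE 0.529, adjusted p = 0.137). The call was lost without PBS_vehicle replicate 1 or 2 or Bleo_vehicle replicate 1 or 2 (log2 changes of 1.37 to 2.53, adjusted p up to 0.151) and without the Harmony correction.

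Timp2 in alveolar macrophages fell from 82.9, 35.3 and 32.7 CPM in Bleo_vehicle to 24.1, 5.34 and 3.29 CPM in Bleo_NVP (4, 2 and 1 UMIs), by 2.45 on the log2 scale (SE 0.621, adjusted p = 0.0302), where 4.95% of genes were called. The pooled Bleo_vehicle level, 36.6 CPM, was below that of lymphocytes and is not distinguished from background. AT1 markers were summed at 97.0 to 133 CPM in PBS_vehicle, 340 to 417 CPM in Bleo_vehicle and 66.2 to 171 CPM in Bleo_NVP alveolar macrophages, 6 of 8 being above all PBS_vehicle libraries, and their part was not tested. The call was lost without Bleo_NVP replicate 2 or 3 or Bleo_vehicle replicate 1 or 2 (adjusted p up to 0.159).

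**Figure D5:**
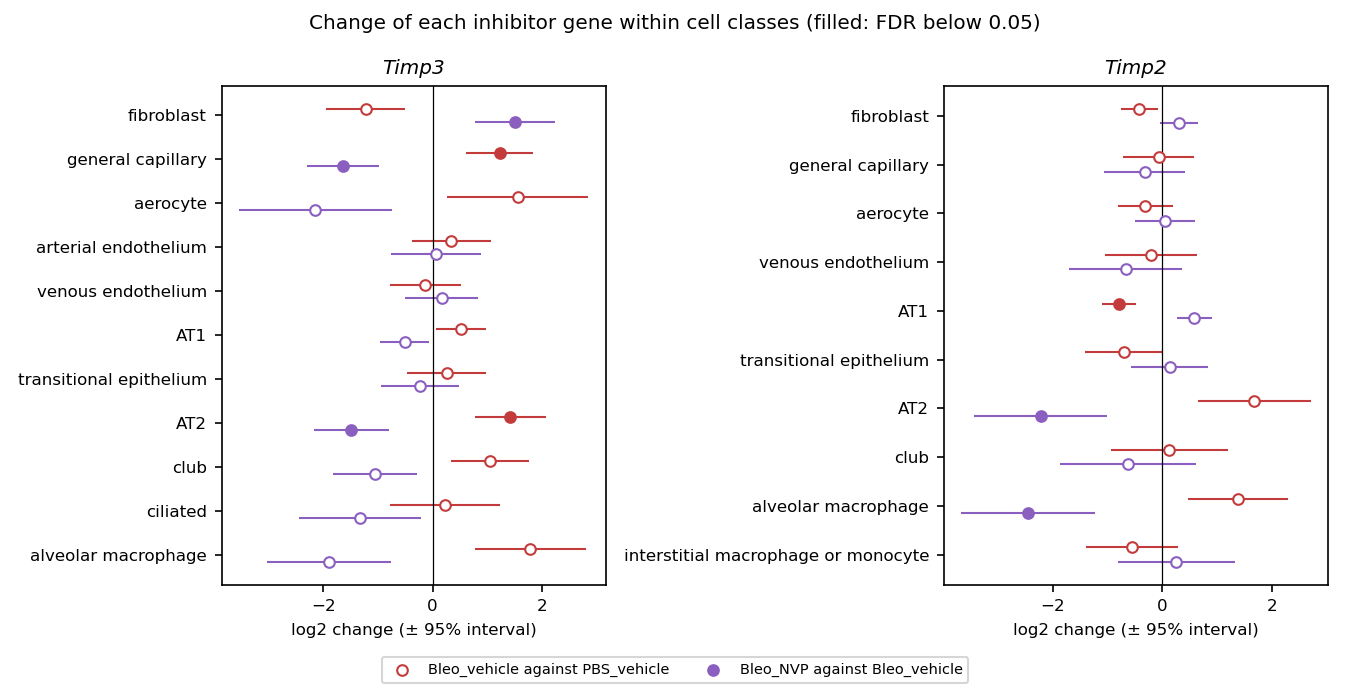
Log2 change with its 95% interval of Timp3 and Timp2 in each tested class (filled points are called), for Bleo_vehicle against PBS_vehicle and Bleo_NVP against Bleo_vehicle. Timp3 was lower in fibroblasts (-1.23, not called) and higher in AT2 cells (1.42) and general capillary endothelium (1.23) of Bleo_vehicle than of PBS_vehicle lungs.

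In venous endothelium, the class with the highest Tll1 and Mmp16, neither gene was called. Tll1 was at 925, 2660 and 2093 CPM in PBS_vehicle, at 631, 779 and 1390 CPM in Bleo_vehicle and at 2920, 1941 and 1543 CPM in Bleo_NVP. Every Bleo_NVP library was above every Bleo_vehicle library, but the log2 differences of -0.93 (SE 0.381) and 1.11 (SE 0.384) had adjusted p of 0.459 and 0.226. Mmp16 was at 480, 855 and 693 CPM, 126, 273 and 875 CPM, and 697, 624 and 642 CPM in the same groups, with log2 differences of -0.40 and 0.36 (adjusted p = 0.909 and 0.792).

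The inhibitor was also given to mice without bleomycin. In PBS_NVP against PBS_vehicle 0 of the members were called in all nuclei and in fibroblasts, where 0.0% of all genes were called, and in the 11 other classes. No member had an unadjusted p under 0.05 in these comparisons, against 43 of 14442 genes in all nuclei and 46 of 10352 in fibroblasts, and DESeq2 called 0 members too. The same held with replicates of the same number as pairs and with the run number as a block. The 95% intervals of the log2 difference in all nuclei were -0.19 to 0.62 for Mmp2, -0.61 to 0.90 for Mmp14, -0.72 to 0.64 for Mmp19 and -1.61 to 2.02 for Timp1. The interval of Timp1 is wide, and a difference of the size seen in Mmp19 could not be detected in it.

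Bleo_NVP against PBS_NVP, the effect of bleomycin under the inhibitor, gave 0 called members in all nuclei and in fibroblasts, where again 0.0% of all genes were called, and 0 in the other classes. In all nuclei 397 genes and in fibroblasts 339 had an unadjusted p under 0.05, none of them a member, and in the other classes 1 of the 34 tests did, Timp2 in venous endothelium. DESeq2 called 0 members. Mmp19 was at 7.98, 10.8 and 8.90 CPM in PBS_NVP and Timp1 at 0.861, 0.519 and 0.342 CPM.

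Whether the inhibitor acted differently under bleomycin and under PBS was tested by the interaction. In all nuclei 0.298% of genes were called but 0 members, with 4 of the 9 at an unadjusted p under 0.05. The interaction was -4.19 for Timp1 (SE 1.31, adjusted p = 0.214), -1.68 for Mmp19 (SE 0.491, adjusted p = 0.189), -1.73 for Mmp14 (SE 0.55, adjusted p = 0.222) and -1.02 for Mmp2 (SE 0.296, adjusted p = 0.184) on the log2 scale. In fibroblasts 0.58% of genes were called and 0 members, with 1.81 for Timp3 (SE 0.518, adjusted p = 0.145), -1.28 for Mmp2 (SE 0.372, adjusted p = 0.134) and -3.73 for Timp1 (SE 1.49, adjusted p = 0.274). DESeq2 called 1 member in each, Timp1 in all nuclei and Timp3 in fibroblasts. The falls in Bleo_NVP are thus not shown to differ from the effect of the inhibitor under PBS.

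Other genes of matrix turnover were taken from lists of related genes. Of 18 other matrix metalloproteinases only 5 passed the filter in all nuclei, and Mmp12, the macrophage elastase, was the 1 called. It rose from 1.02 to 1.48 CPM in PBS_vehicle to 5.97 to 13.9 CPM in Bleo_vehicle, a log2 change of 3.25 (SE 0.443, adjusted p = 0.00426), and fell in Bleo_NVP by 3.09 (SE 0.461, adjusted p = 0.00539), to 0.593 to 1.92 CPM. Of 14 tested ADAMTS proteases, which cut proteoglycans and procollagens, 0 were called in all nuclei. In fibroblasts, of 13 tested, Adamts15 rose in Bleo_vehicle by 0.92 (adjusted p = 0.039) and fell in Bleo_NVP by 1.24 (adjusted p = 0.00841), and Adamts14, a procollagen N-proteinase, fell by 1.57 (adjusted p = 0.034).

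Of the ADAM sheddases, which release surface proteins, 0 of 9 were called in all nuclei of Bleo_vehicle against PBS_vehicle and 1, Adam15, fell in Bleo_NVP, by 1.32 (adjusted p = 0.0446). In fibroblasts 1 of 7, Adam12, rose by 4.08 (SE 0.976, adjusted p = 0.0439) and fell in Bleo_NVP by 3.88 (adjusted p = 0.0453). Its mean in Bleo_vehicle fibroblasts, 201 ± 256 CPM (SD, n = 3), came largely from 1 library at 496 CPM. Among 3 tested tolloid relatives and enhancers, Pcolce2, an enhancer of procollagen C-proteinases, fell in all nuclei from 130 to 155 CPM in PBS_vehicle to 32.1 to 75.3 CPM in Bleo_vehicle, by 1.30 (SE 0.235, adjusted p = 0.0186), and rose in Bleo_NVP by 1.42 (SE 0.236, adjusted p = 0.00928). In Bleo_NVP fibroblasts Pcolce2 also rose, by 1.17 (adjusted p = 0.0367), and Bmp1, the procollagen C-proteinase related to Tll1, fell by 1.28 (adjusted p = 0.0359).

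Of 6 genes of metalloproteinase activation and clearance, 0 were called in all nuclei of Bleo_vehicle against PBS_vehicle, and in Bleo_NVP the proprotein convertase Furin fell by 1.28 (adjusted p = 0.0492) and the clearance receptor Lrp1 by 1.40 (adjusted p = 0.027). In fibroblasts the convertase Pcsk6 rose in Bleo_vehicle by 3.83 (adjusted p = 0.00773), from at most 1.29 CPM, and Lrp1 fell in Bleo_NVP by 1.15 (adjusted p = 0.0274). Of 10 matrix substrates 0 were called in Bleo_vehicle against PBS_vehicle, in all nuclei or fibroblasts. In Bleo_NVP 2 fell in all nuclei, the elastin gene Eln by 1.80 (adjusted p = 0.0238) and the collagen gene Col1a1 by 1.50 (adjusted p = 0.033), and 2 fell in fibroblasts, Eln by 2.38 (adjusted p = 0.0301) and the crosslinking enzyme gene Lox by 1.10 (adjusted p = 0.0452). None of these lists had a called gene in PBS_NVP against PBS_vehicle or in Bleo_NVP against PBS_NVP.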

How the data were processed

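The authors deposited, for each of 12 lungs, a matrix of UMI counts per gene and nucleus, not normalized. Per the labels it was made with Cell Ranger 7.0 on mm10 (the file headers name 7.2.0), with Seurat 4.4.1 named as a further tool. The authors' cell annotation was not used here.

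Nuclei with 200 to 6000 genes and at most 5% mitochondrial UMIs were kept, and doublets were removed by a score from simulated doublets at a rate of 0.8% per 1000 nuclei. Clusters were formed with scanpy 1.11.5 (Python 3.11.15) from 2000 variable genes, with the members and the related genes barred, 30 components, Harmony, 20 neighbours and Leiden resolution 1. A cluster was named from at least 3 markers, or 8 where none was among its leading genes, a limit set after seeing the data. UMIs were summed per library and class (at least 20 nuclei) and tested with the quasi-likelihood test of edgeR 4.0.16 (R 4.3.3) with TMM scaling and a filter on low counts, two-sided, with Benjamini-Hochberg adjustment over all genes tested at 0.05. The script was tested on simulated data. The 95% intervals of log2 differences are 1.96 SE wide on each side, and floors for a count of 0 are 3 counts and cover counting error only.

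The 10 members were named whatever their values, with up to 2 called genes per direction from each related list and the 3 most alike genes, of which 1 is not reported here and those of Timp4 are left out for its low count. Members and lists were chosen with earlier results of these data known. Alternatives were TMM against DESeq2 1.42.0 and its size factors, no filter, the groups compared alone, a replicate block, stricter nuclei, doublets kept, no Harmony and each library left out. After seeing the data, fibroblasts without mixed subclusters, and each library left out in the other classes, were added.

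Same-numbered PBS_NVP and PBS_vehicle libraries deviated together (correlations of 0.742, 0.394 and 0.505 in all nuclei, and 0.657, 0.378 and 0.435 in fibroblasts), so they count as paired by number. 0 members were called with or without the pairing.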

Additional observations from a re-analysis of the deposited data

Results flagged for a closer look

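Timp3 and Timp2 moved in opposite directions in different classes, with each group of libraries fully apart from the other within a class. None of these differences between classes was tested, and such separation was not counted over all genes. Values are differences between the log2 changes of the class where the gene was higher and the class where it was lower. For Bleo_vehicle against PBS_vehicle, Timp3 differed by 2.65 between AT2 cells and fibroblasts and by 2.45 between general capillary endothelium and fibroblasts. Timp2 differed there by 2.17 between alveolar macrophages and AT1 cells. The Timp3 change in fibroblasts and the Timp2 change in alveolar macrophages were not called.

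For Bleo_NVP against Bleo_vehicle, Timp3 was higher in fibroblasts and lower in 5 classes whose libraries did not overlap. It was called in fibroblasts, AT2 cells and general capillary endothelium, and not in aerocytes, alveolar macrophages or club cells. The difference from fibroblasts was 2.99 in AT2 cells, 3.65 in aerocytes, 3.39 in alveolar macrophages, 2.56 in club cells and 3.15 in general capillary endothelium. For Timp2 fibroblasts differed by 2.53 from AT2 cells and by 2.76 from alveolar macrophages, and AT1 cells by 2.81 and 3.04 from the same classes. The Timp2 changes in fibroblasts and AT1 cells were not called.

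In Bleo_vehicle the pooled Timp3 level was 223 CPM in B and 304 CPM in T or NK lymphocytes, above that of AT2 cells (136 CPM), general capillary endothelium (198 CPM), club cells (150 CPM) and alveolar macrophages (60.8 CPM), while aerocytes were at 603 CPM and AT1 cells at 1407 CPM. The part of RNA from other cells in these differences was not tested.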

How the results depend on the processing

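In all nuclei, the 2 members called in Bleo_vehicle against PBS_vehicle became 4 with the replicate block, 4 in DESeq2, 1 among stricter nuclei and 0 with the 2 groups fitted alone, and 0 to 4 with a library left out. The 4 called in Bleo_NVP against Bleo_vehicle became 1 with the groups alone, 1 among stricter nuclei, 2 without a filter, 3 with RLE size factors and 3 with doublets kept (Mmp2 lost in each of these 5), and 0 to 4 with a library left out. For the interaction the 0 became 1 in DESeq2 and 0 to 1 with a library left out. In fibroblasts, the 2 called in Bleo_vehicle against PBS_vehicle became 4 with the replicate block, 5 without a filter, 5 in DESeq2, 0 with the groups alone, 0 among stricter nuclei and 1 without the mixed subclusters, and 0 to 3 with a library left out. The 3 called in Bleo_NVP against Bleo_vehicle became 0 with the groups alone, 0 among stricter nuclei, 2 without Harmony (Mmp2 and Mmp16), 4 with the replicate block, 4 without a filter and 4 in DESeq2 (Mmp14 gained in these 3), and 0 to 4 with a library left out. The interaction went from 0 to 1 with the replicate block, 1 without Harmony, 1 in DESeq2, 4 without a filter and 0 to 1 with a library left out. In the other classes, the 4 and 4 called became 0 and 1 with the groups alone, 2 and 1 among stricter nuclei, 8 and 10 with doublets kept, and 0 to 12 and 0 to 13 with a library left out. The interaction there went from 0 to 3 with doublets kept and 0 to 4 with a library left out. The cause was not tested. PBS_NVP against PBS_vehicle and Bleo_NVP against PBS_NVP gave 0 in every alternative run.

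Over all genes, the 352 and 796 called in all nuclei became 977 and 1918 with the replicate block, 28 and 526 with the groups alone, 176 and 327 among stricter nuclei and 992 and 1724 in DESeq2. In the fibroblast nuclei the 462 and 749 became 914 and 1323 with the block, 193 and 465 with the groups alone, 227 and 390 among stricter nuclei and 1331 and 1508 without a filter, and the 462 became 695 without Harmony and 727 in DESeq2. The interaction called 43 genes in all nuclei and 358 with the block, 22 among stricter nuclei, 73 without a filter and 351 in DESeq2. In fibroblasts it called 60, and 400, 33, 722 and 258 in the same order, with 326 without Harmony. Bleo_NVP against PBS_NVP called 0 in fibroblasts and 18 without a filter. For single members 1323 settings were compared with the main fit. They cover levels in the highest class and differences with an unadjusted p under 0.05 in the main fit, called or not. Of these, 1124 were unchanged, a level staying within the SD over libraries or a difference staying on its side of the threshold. In 130 a call was lost, in 69 a call was gained, and 0 changed sign. Outside the PBS pair, same-numbered libraries share only a number (correlations in all nuclei of -0.000193, 0.0989 and -0.00254 for Bleo_vehicle and PBS_vehicle), so the block is no pairing there. Few UMIs limit Timp1 and Timp4, and 3 libraries per group limit all.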

Other observations

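A cluster of 426 nuclei that stayed unnamed, led by Kctd16, Pappa2, Lgr5, Aspn and Hhip, held 26 Timp1 UMIs, of which 23 were in Bleo_vehicle (42.4 CPM) and 1 in each other group. In the same nuclei Mmp16 was at 103 CPM over all libraries, with 150 CPM in PBS_vehicle and 73.8 CPM in Bleo_vehicle. Another unnamed cluster of 248 nuclei, led by Bpifb1 and Muc5b, had 513 CPM of Timp3, 111 CPM of Tll1 and 77.6 CPM of Mmp15. These nuclei entered no comparison of a class, and the values carry no test.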
